A study of Bos taurus with 6 samples.

Results

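CAPN1, the large subunit of the calcium-dependent protease mu-calpain, and CAST, which encodes the calpain inhibitor calpastatin, were followed in longissimus dorsi muscle of Hanwoo (Korean cattle). They are 2 of the 24616 genes in the count tables and were taken by their Ensembl IDs, ENSBTAG00000010230 for CAPN1 and ENSBTAG00000000874 for CAST. These symbols came with the choice of the 2 genes. Neither the count tables nor the reference gene table used here pairs an Ensembl ID with a name, so the symbols were not checked against the data. Polyadenylated RNA of the long back muscle was sequenced from 3 bulls (intact males) and 3 steers (castrated males), 1 library per animal. Bulls 20, 22 and 23 were 746 days old, and Steers 439, 456 and 458 were 996, 950 and 930 days old. The ages of the groups do not overlap, which means that castration cannot be told apart from age, and the age at castration is not given in the sources used here.

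Mu-calpain is a cysteine protease of the cytosol that works as a dimer of CAPN1 with a small regulatory subunit and is switched on by calcium. It cuts proteins that hold the contractile lattice of the fibre together, such as desmin, titin and nebulin, rather than degrading them fully. Calpastatin is its specific inhibitor in the cell, and its repeated inhibitory domains each bind an active calpain. In beef cattle the balance of the pair is known for its part in the softening of meat after slaughter and in protein turnover of the living muscle. The tables hold read counts, so the levels below are of mRNA and not of enzyme amount or activity.

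The libraries held between 17027226 and 27490776 gene counts, the fewest in Steer 456 and the most in Steer 458. Levels are given as CPM, counts per 1000000 gene counts after TMM scaling, with scaling factors between 0.889 and 1.077. CAPN1 was covered by 640 to 1328 reads per library and CAST by 2874 to 3713. The intervals of single libraries given below are exact 95% intervals that cover counting error only. Since gene IDs could not be named, the muscle label was not checked against marker genes. In such bulk tissue, fewer cells of a type and less RNA per cell cannot be told apart.

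The protease gene CAPN1 was higher in each of the 3 bulls than in any steer, but the difference did not pass the test across all genes. Its level was 61.4 CPM in Bull 20, 64.3 in Bull 22 and 56.4 in Bull 23. Steer 439 had 51.3 CPM, Steer 456 had 36.1 and Steer 458 had 46.6. The lowest bull thus lay 5.06 CPM above the highest steer, a factor of 1.099, and Steer 456 stood lowest of all 6 animals. The group means were 60.7 ± 4.01 CPM in bulls and 44.7 ± 7.79 CPM in steers (SD, n = 3).

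CAPN1 was 1.36-fold higher in bulls, with a 95% interval of 1.01 to 1.82 (log2 fold change 0.44 ± 0.18, SE). The unadjusted p of edgeR's quasi-likelihood test was 0.0429, and the Benjamini-Hochberg adjusted p over the 12769 tested genes was 0.205. Of those genes, 20.9% had a smaller p than CAPN1. Over all tested genes, 4.1% passed at an adjusted p under 0.05, 2.04% with the bulls higher and 2.06% with the bulls lower, and 22.4% had an unadjusted p under 0.05. Groups without overlap were likewise common, in 29.6% of the tested genes in either direction and in 15.6% with the bulls higher. The share of 4.1%, or 524 genes, was itself unstable. It became 7 to 10 genes without any one of the bulls, 77 without Steer 458, 995 without Steer 439, 1019 without Steer 456 and 1507 with DESeq2. With all animals in the edgeR fit, the position of CAPN1 was one it shared with many genes of this comparison.

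In the order of the 6 libraries, neighbouring CAPN1 levels were compared by their ratio with an exact interval for counting error. Only Bull 22 and Bull 20 were not separated, with a ratio of 1.05 (0.969 to 1.13). The step between the groups, from Bull 23 to Steer 439, had a ratio of 1.099 (1.01 to 1.19), which was close to the step of 1.089 (1.01 to 1.18) between Bull 20 and Bull 23. Steer 439 had 1.10 times (1.02 to 1.19) the level of Steer 458. The widest of these steps was that from Steer 458 down to Steer 456, at 1.29 (1.17 to 1.42). These intervals compare libraries and leave out the spread between animals of a group.

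The inhibitor gene CAST overlapped between the groups and did not pass the test. Its level was 163.0 CPM in Bull 20, 158.4 in Bull 22 and 170.8 in Bull 23. The steers had 151.4 CPM in Steer 439, 162.0 in Steer 456 and 120.5 in Steer 458. Steer 456, lowest in CAPN1, lay inside the range of the bulls for CAST, while Steer 458 was the low animal here. The group means were 164.0 ± 6.24 CPM in bulls and 144.6 ± 21.6 CPM in steers (SD, n = 3).

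The fold of CAST in bulls over steers was 1.13, with a 95% interval of 0.835 to 1.54 (log2 fold change 0.18 ± 0.19, SE; edgeR adjusted p = 0.630, unadjusted p = 0.373). The interval holds values on both sides of no change, and it does not show that the groups had equal levels. Leaving out Steer 458 brought the log2 fold change of CAST to 0.04 ± 0.18 (SE; adjusted p = 0.919 in edgeR). Among neighbours in the order of CAST levels, only the last pair was separated by its counting interval, with 1.26 times (1.20 to 1.32) the level of Steer 458 in Steer 439.

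**Figure D1:**
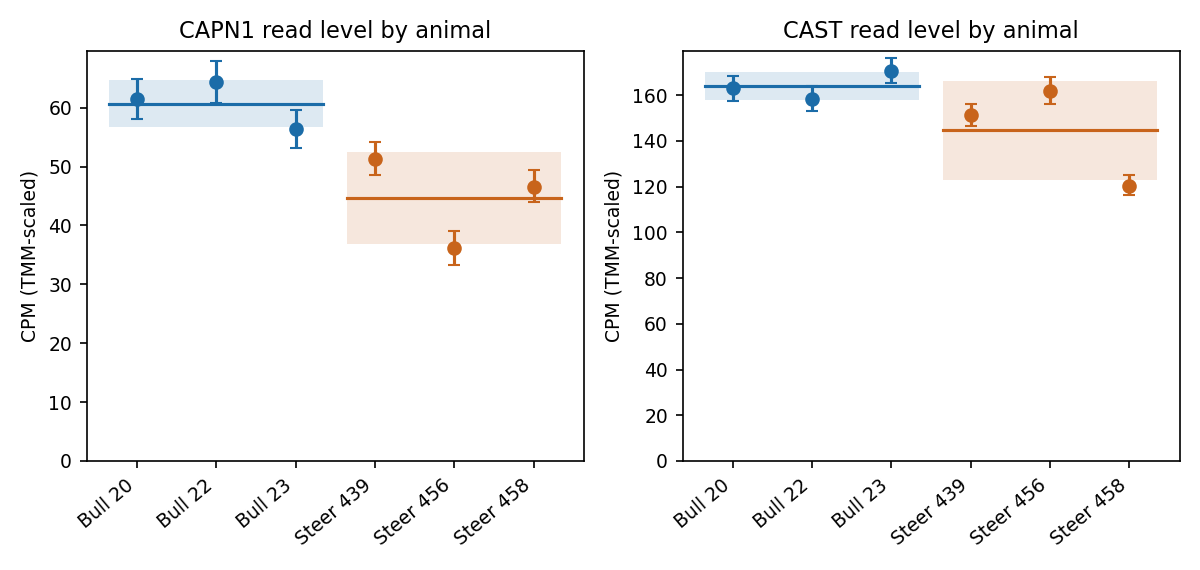
CAPN1 (left) and CAST (right) in CPM on the y axis for each animal on the x axis, bulls in blue and steers in orange. Points carry 95% counting intervals, lines are group means and bands are ± 1 SD of 3 animals. All bulls lie above all steers for CAPN1, with 56.4 CPM in the lowest bull and 51.3 in the highest steer, and the groups overlap for CAST.

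Both genes varied little among the bulls and more among the steers. The coefficient of variation of CAPN1 was 6.61% in bulls and 17.4% in steers, and that of CAST was 3.81% and 14.9%. Counting error alone gives 2.74% to 3.95% for CAPN1 and 1.64% to 1.87% for CAST at these read numbers. The highest steer had 1.42 times the CAPN1 level of the lowest and the highest bull 1.14 times. For CAST the same factors were 1.35 in steers and 1.08 in bulls.

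The larger spread among steers was also seen across the tested genes. On the log2 CPM scale CAPN1 had an SD of 0.10 among the bulls and 0.26 among the steers, 2.72 times as much. For CAST the SD was 0.05 and 0.22, a factor of 4.10. The medians over all tested genes were 0.18 and 0.39. CAPN1 was thus among the steadier genes, since 22.2% of the tested genes had a smaller SD in bulls and 28.9% in steers. For CAST these shares were 8.65% and 22.4%. Genes with few reads have larger SDs through counting alone, and their part in these shares was not tested. Across genes, Steer 456 correlated at 0.928 and 0.937 with the other steers, which correlated at 0.967 with each other. The bulls were all of the same age and the steers were not. The parts of Steer 456 and of age in the larger spread among steers were not tested.

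The ratio of CAPN1 to CAST reads was compared within each library, where depth and scaling cancel. The numbers of reads also depend on transcript length, so the ratio can be compared between animals but does not give the relative abundance of both mRNAs. It was 0.377 in Bull 20, 0.406 in Bull 22 and 0.330 in Bull 23. Steer 439 had a ratio of 0.339, Steer 456 one of 0.223 and Steer 458 one of 0.387. The groups overlapped: 2 of the 3 steers lay within the range of the bulls, and Steer 456 lay below every other animal.

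Expressed as a share, CAPN1 made up 27.0% ± 2.05 of the reads of both genes in bulls and 23.8% ± 5.01 in steers (SD, n = 3). The lowest share was that of Steer 456, at 18.2%, with an exact Clopper-Pearson interval of 16.9% to 19.5%. Next came Bull 23 with 24.8% (23.6% to 26.1%). The highest share was that of Bull 22, at 28.9% (27.5% to 30.2%).

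The mean log2 ratio was -1.44 ± 0.15 in bulls and -1.70 ± 0.42 in steers (SD, n = 3), a difference of 0.26. The exact 2-sided permutation test gave p = 0.5, where 3 animals against 3 cannot give less than 0.1. Tests of the same kind gave p = 0.1 for CAPN1 CPM and p = 0.2 for CAST CPM, and after Benjamini-Hochberg adjustment over these 3 tests the exact permutation p was 0.5 for the ratio and 0.3 for each gene. In an edgeR fit of all genes with the CAST count in place of the library size, the ratio was 1.17-fold higher in bulls with a 95% interval of 0.765 to 1.80 (adjusted p = 0.696). The interval spans a lower as well as a higher ratio in bulls. Without Steer 456 the difference of the mean log2 ratios was 0.03 instead of 0.26, and without Steer 458 it was 0.43, so its size depended on which steers were included.

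**Figure D2:**
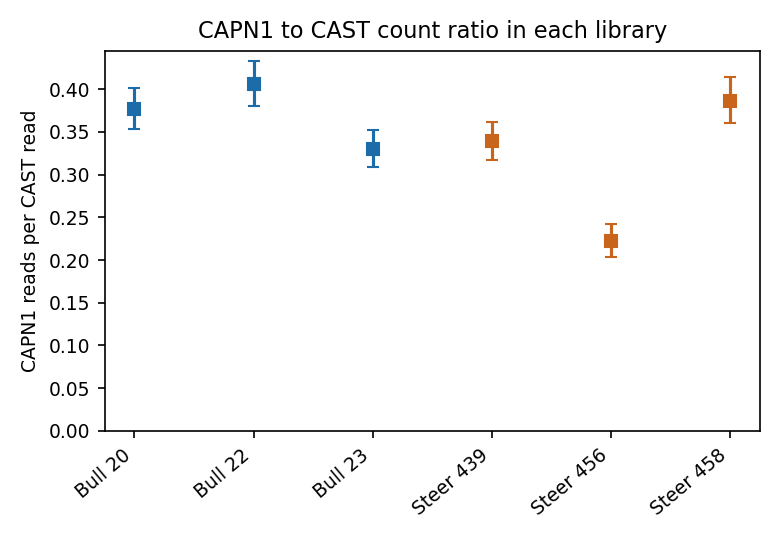
CAPN1 reads per CAST read on the y axis for each library on the x axis, bulls in blue and steers in orange, with exact 95% counting intervals. Steer 456 lies at 0.223, and the other 5 animals lie between 0.330 and 0.406.

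The steers were set against the mean of the bulls for each gene. In Steer 456, CAPN1 was at 59.5% of the bulls' mean CPM and CAST at 98.8%. In Steer 458, CAPN1 was at 76.7% and CAST at 73.4%, so that the level of both genes was low and their ratio lay within the range of the bulls. Steer 439, the oldest animal, had 84.5% for CAPN1 and 92.3% for CAST. All 3 steers were thus below the mean of the bulls for both genes. In Steers 439 and 458 both genes were below every bull and the ratio was within their range, while Steer 456 was low in CAPN1 alone. For CAST, however, counting error did not separate Steer 439 from the lowest bull, Bull 22, which had 1.05 times (0.997 to 1.10) its level.

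Steer 456 also stood apart across all genes. Its log2 CPM correlated with the other 5 libraries at 0.902 to 0.937, against 0.941 to 0.984 for every pair of the others, correlations that run across genes and not across replicates. The part of this in the CAPN1 value of Steer 456 was not tested. With this animal left out, the log2 fold change of CAPN1 became 0.31 ± 0.14 (SE; adjusted p = 0.192 and unadjusted p = 0.0540 in edgeR), against 0.44 with all 6 animals. The direction of the difference was the same, which the lack of overlap between the groups had fixed in advance at an unchanged scaling.

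The levels of the protease and its inhibitor were also compared across the 6 animals. The log2 CPM of CAPN1 and CAST had a Pearson r of 0.244 (exact permutation p = 0.522) and a Spearman rho of 0.314 (exact permutation p = 0.564), as 1 relation tested over 6 libraries. Both values share the library total. The libraries of both groups were pooled, and both genes had a higher mean in bulls. Each r therefore mixes the difference between the groups with variation among animals of a group. With library size alone r was 0.467 (exact permutation p = 0.442), and with DESeq2 size factors it was 0.200 (exact permutation p = 0.586). Under each of these scalings rho was 0.0857 (exact permutation p = 0.919). Without Bull 22 and Steer 456, the libraries farthest from the median of CAPN1, r was 0.871 over 4 libraries (exact permutation p = 0.167). Leaving out Steer 456 alone gave r = 0.783 and leaving out Steer 458 alone gave r = 0.044, so the value rested on single animals. Among the bulls alone the genes ran in opposite order: Bull 22 had the highest CAPN1 and the lowest CAST, and Bull 23 the reverse. With 3 animals per group no correlation within a group was computed.

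**Figure D3:**
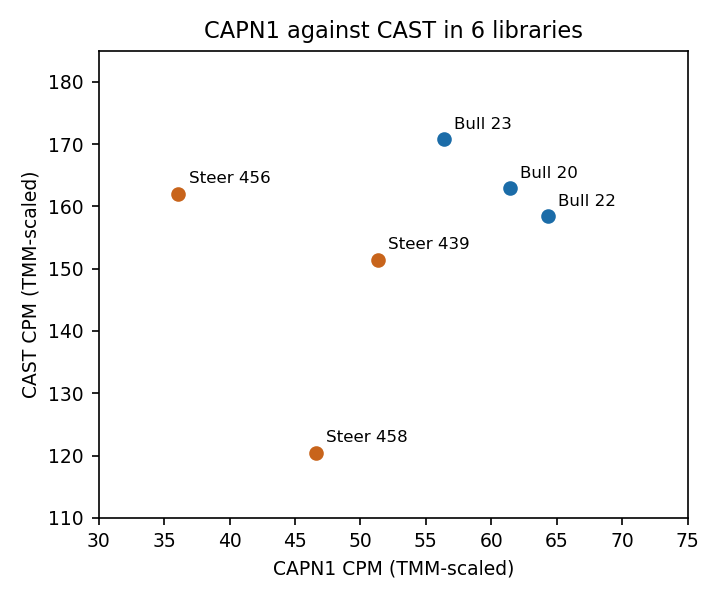
CAST against CAPN1, both in CPM, with 1 point per animal, bulls in blue and steers in orange; the axes do not start at 0. Steer 456 lies far left at the CAST level of the bulls, and Steer 458 lies lowest in CAST with 120.5 CPM.

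More genes followed the pattern of CAPN1 over the 6 libraries than that of CAST. Among 8630 other tested genes with a mean of at least 5 CPM, 179 (2.07%) had a Pearson r above 0.95 with CAPN1 and 30 (0.348%) with CAST, counted on log2 CPM. The number for a usual tested gene was not computed, so neither count can be called particular to its gene. CAPN1 was lowest in Steer 456, which stood apart across all genes, and the part of that animal in the counts was not tested. The gene most like CAPN1 was ENSBTAG00000012704 with r = 0.998 over 6 libraries, at 32.8 ± 1.51 CPM in bulls and 26.4 ± 3.71 CPM in steers (SD, n = 3). It too was lowest in Steer 456, with 22.4 CPM, and did not pass the test (log2 fold change 0.31 ± 0.17, SE; edgeR adjusted p = 0.333). The gene most like CAST was ENSBTAG00000011495 with r = 0.997, at 9.41 ± 0.569 CPM in bulls and 7.57 ± 2.26 CPM in steers (SD, n = 3). It was lowest in Steer 458, with 5.07 CPM. These r were picked as the highest of 8630 over 6 points and are descriptions. By the same measure 47.0% of the genes compared were more like CAPN1 than CAST was, and 28.9% were more like CAST than CAPN1 was.

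The results of both genes kept their direction under 14 alternative fits each, and neither gene passed in any of them. All bulls lay above all steers in CAPN1, so leaving out 1 animal could not turn its direction at an unchanged scaling. For CAST the levels given above also fix the direction of the group means when any 1 animal is left out. The fits with 1 animal left out are therefore no separate support for either direction. The fits with other scalings, filters and tests used the same animals again. For CAPN1 the log2 fold change lay between 0.42 and 0.53 under other scalings, filters and tests, and between 0.31 and 0.53 with 1 animal left out. The edgeR, DESeq2 or limma adjusted p of CAPN1 was lowest without Steer 439, at 0.107, and highest without Bull 22, at 0.447. For CAST the corresponding log2 fold changes were 0.15 to 0.26 and 0.04 to 0.27. Scaling by library size alone moved the median gene by 0.085 on the log2 scale towards the bulls. On that scale CAPN1 was at 60.7 to 65.6 CPM in the bulls and 37.6 to 50.7 CPM in the steers. Its groups did not overlap there either, on a scale that had moved towards the bulls. The share of all tested genes without overlap on that scale was not computed.

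**Figure D4:**
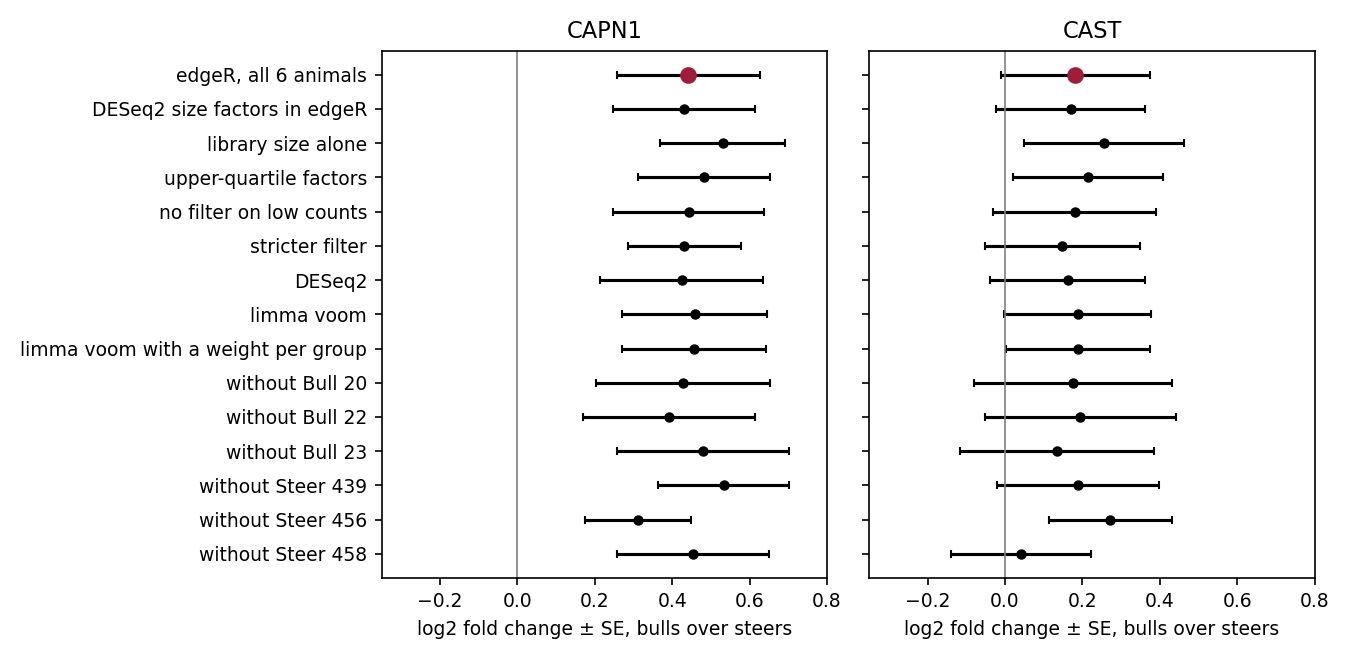
Log2 fold change of bulls over steers with its SE on the x axis for CAPN1 (left) and CAST (right) under each fit on the y axis; the larger red point is the edgeR fit of all 6 animals. CAPN1 lies between 0.31 and 0.53 in the alternatives and CAST between 0.04 and 0.27.

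Reads of neighbouring genes could blur such counts where genes overlap, because the strand setting of the counting is not given in the sources used here. On the RefSeq annotation of assembly ARS-UCD2.0, which is not the build of the counts, 0 protein-coding genes overlapped CAPN1 or CAST. CAPN1 held 1 miRNA gene and lay between SPDYC and SLC22A20, and CAST lay between PCSK1 and ERAP1. Whether this holds for the annotation used for counting was not tested. The counts also sum all transcripts of a gene, so the known CAST forms that start at different promoters were not told apart. Other genes of the calpain system, among them the small subunit CAPNS1 and the muscle calpain CAPN3, were not analysed here because no ID could be paired with their symbols.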

How the data were processed

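The authors deposited 1 table of unnormalized read counts per animal, by Ensembl gene. The tools were TopHat2 2.0.2, HTSeq 0.5.3p3 and FastQC on build UMD3.1, per the submitters' processing notes. For the annotation release, strand and overlap mode nothing was given in the sources used here. The 5 HTSeq summary rows, 29.3% to 39.9% of all lines counted, entered neither library sizes nor tests. All 6 libraries entered 1 fit with group as the only term: edgeR 4.0.16 quasi-likelihood test in R 4.3.3, TMM scaling, filterByExpr, robust dispersions, Benjamini-Hochberg adjustment over 12769 genes at 0.05. Log2 fold changes are bull minus steer, with SE taken as their size over the square root of F and 95% intervals from the fit's t distribution. Log2 CPM used a prior count of 2, except for the printed r and rho between CAPN1 and CAST, which used none. Exact permutation tests used SciPy 1.17.1. DESeq2 1.42.0 and limma 3.58.1 served as alternatives. Each title numbers a separate animal, and no number is shared between groups.

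Of 24616 IDs, 0 matched the 37063 rows of the reference gene table, so the 12 gene lists fixed by symbol (calpain system, calpain substrates of the myofibril, cathepsins, ubiquitin proteasome, caspases and heat shock proteins, and markers of cell types) were not tested. The genes named are CAPN1, CAST and, for each, the most similar gene with a mean of at least 5 CPM, given by ID. The members and lists were chosen with earlier results of these data known. No sequence is printed.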

Additional observations from a re-analysis of the deposited data

Results flagged for a closer look

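Some reads in the tables were counted for no gene and enter no comparison of CAPN1 or CAST. The median library had 26.8% of its lines in the class of multiple alignments and 11.3% in reads outside annotated genes. Reads over several genes made up 0.438% of lines in the median library. The first of these classes ranged from 16.9% in Steer 439 to 28.2% in Bull 22. How many of these reads came from CAPN1 or CAST was not tested. With 3 animals per group, no animal was tested as an outlier.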

How the results depend on the processing

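CAPN1 and CAST kept their direction in the 14 alternative fits of each (3 scalings, 2 filters, 3 other tests and 6 fits with 1 animal left out), and neither passed. Of these, 9 gave CAPN1 an unadjusted p under 0.05 and 0 gave CAST one. The groups did not overlap in CAPN1, so leaving out 1 animal could not turn its direction at an unchanged scaling. The levels of CAST in the 6 animals fix its direction in the same way. The ratio was computed in 2 other ways and with each animal left out, and the difference stayed above 0, between 0.03 and 0.43 with 1 animal left out. Its permutation test could not pass at this number of animals, so its p says nothing about stability. The correlation was computed under 2 other scalings, without the 2 farthest libraries and, as chosen after seeing the data, without each animal in turn, which gave r from 0.044 to 0.783. The number of genes called was 524, became 1507 with DESeq2 and ranged from 7 to 1019 with 1 animal left out (7 to 10 without a bull, 77 without Steer 458, 995 without Steer 439 and 1019 without Steer 456); the cause was not tested. In the fits of all animals other than DESeq2 it was within 1.5 times of 524. The log2 fold change of CAST was 0.27 without Steer 456. No paired analysis was possible because bulls and steers share no number. The limits are 3 animals per group, the age gap between the groups and gene names that could not be matched.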
